A study of Mus musculus with 24 samples.

Results

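Amino acid carriers of the plasma membrane and their partner subunit, 10 genes led by Slc7a5, were followed from mRNA to ribosome footprints in mouse neuroblastoma cells. The genes were Slc7a5, Slc3a2, Slc7a11, Slc7a1, Slc7a3, Slc1a4, Slc1a5, Slc38a1, Slc38a2 and Slc6a9, and their rows were found by matching symbols to the transcript names in the count tables. All 10 had a single transcript among the 12759 transcripts listed, and all 10 passed the filter on low counts in every comparison. No measured value entered the match itself, but the list counts as selected on the mRNA, the footprints and their ratio over the 4 conditions, since earlier results of these data were known when it was drawn up. The fold changes and adjusted p-values of the 10 genes are therefore given as a description, and they are no independent evidence for the choice of these genes.

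N2a cells, a mouse neuroblastoma line, carried either the empty pSpCas9-Puro vector (ctrl, given as WT in some labels) or vectors with guides against exons 1, 2 and 4 of Eif4e3 (KO), a member of the eIF4E family of cap-binding proteins. Both lines had passed through transfection and puromycin selection, and the KO was a selected population for which no single clone is stated. Cells received 250 nM Torin1, which blocks the kinase mTOR, or vehicle (DMSO) for 2 h, which gives the conditions ctrl DMSO, ctrl Torin1, KO DMSO and KO Torin1. Total RNA (RNA-seq, 3 libraries per condition) and ribosome-protected fragments (ribo-seq, 3 libraries per condition, of which ctrl DMSO replicate 2 is not analysed here) were measured, with replicates given as different passages of the cells.

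Cells take up amino acids through membrane carriers that exchange one amino acid for another or that use the sodium gradient or the membrane potential. Slc7a5 is the light chain of an exchanger of leucine and other large neutral amino acids, and it reaches the plasma membrane bound to the glycoprotein heavy chain Slc3a2. Amino acids brought in this way activate mTORC1 at the lysosome, and when they run short the transcription factor ATF4 raises the expression of several carriers through CCAAT-enhancer binding protein-activating transcription factor response elements (CARE).

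The sequences shown here are the CARE-like matches of the form TGATGCAA, because they are what most of the 10 genes share around their annotated transcript start. The motif searched was TGATGNAA on both strands, within 1000 bases either side of the start in GENCODE M21 on GRCm38 (mm10). It was found in 8 of the 10 genes, against 17.6% of the 12703 transcripts of the tables that matched the annotation. The form TGATGCAA, chosen after the matches had been seen, was found in 7 of the 10 genes, against 4.13% of all transcripts. A match is a stretch of letters and not a site shown to be bound. Each line below gives 28 bases, 5′ to 3′ on the genome strand named, with the motif in capitals, and for Slc7a11, which has 2 such matches, the one nearer the start.
Slc7a11 (chr3:50443643-50443670, plus strand): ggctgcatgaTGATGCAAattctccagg
Slc1a4 (chr11:20332700-20332727, plus strand): aggctggagaTGATGCAAcgcaggaggc
Slc7a1 (chr5:148399490-148399517, minus strand): gcgtggtgcaTGATGCAAcagcgggagg
Slc38a1 (chr15:96642436-96642463, minus strand): ggggggaaacTGATGCAAccagccctgg
Slc38a2 (chr15:96699167-96699194, plus strand): cgggaggaacTGATGCAAtaccgagggg
Slc7a3 (chrX:101085166-101085193, plus strand): acagttgcgcTGATGCAAttgcaagccc
Slc6a9 (chr4:117835386-117835413, plus strand): ctcgggaggcTGATGCAActttcccttt

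The match of Slc7a11 lay upstream of the transcript, with its centre at position -45 from the start, and that of Slc1a4 spanned the start itself. Those of Slc7a1, Slc38a1 and Slc38a2 lay in intron 1, and those of Slc7a3 and Slc6a9 in intron 2. Slc1a5 had the form TGATGAAA at position -986 from the start, Slc38a1 a second match (TGATGGAA) at -838, and Slc7a1 also had TGATGAAA, 70 bases into the noncoding part of exon 1. The map of motif matches shows where each lay. Neither Slc7a5 nor Slc3a2 had TGATGNAA in this window, and nothing follows from that about the factors that act on them. In the shorter RefSeq promoters (250 bases before to 50 after the start, GRCm38), which were at hand for 6 of the 10 genes, Slc1a4 and Slc7a11 had the motif, against 3.97% of 32851 promoters.

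**Figure D1:**
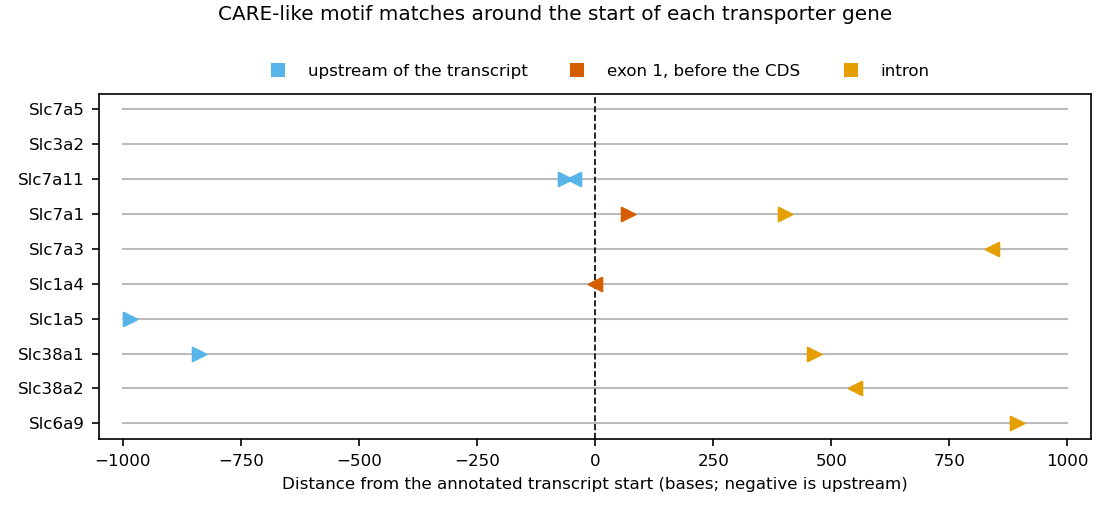
Matches of the CARE-like motif TGATGNAA within 1000 bases either side of the annotated transcript start of the 10 genes (x axis, bases from the start; triangles point right where the motif reads along the gene's strand and left where it reads on the opposite one, and colours give the place). Slc7a5 and Slc3a2 have no match, Slc7a11 has 2 just upstream, and 5 genes have a match in an intron downstream of the start. Of these, Slc7a1 also has a match in exon 1 and Slc38a1 a match upstream at -838.

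Slc38a1 and Slc38a2 lie side by side on chromosome 15, and each of the other genes lies on a chromosome of its own. The transcript of Slc7a5 runs on the minus strand at chr8:121881150-121907694, with 10 exons, a CDS of 1536 nt and a 5′ TL (transcript leader) of 88 nt. That of Slc3a2 lies at chr19:8707617-8713879, also on the minus strand, with 9 exons and a 5′ TL of 132 nt. The transcripts of Slc7a11 (chr3:50364938-50443611), Slc7a1 (chr5:148327410-148399904), Slc7a3 (chrX:101079222-101086020), Slc1a4 (chr11:20302180-20332713), Slc38a1 (chr15:96571418-96642913) and Slc38a2 (chr15:96687392-96699730) also lie on the minus strand, and those of Slc1a5 (chr7:16781340-16798274) and Slc6a9 (chr4:117834506-117869296) on the plus strand. The leaders of Slc7a5 and Slc3a2 were the shortest of the 10, at the percentiles 23.0 and 38.5 of all transcripts, whereas the median was 315 nt for the 10 genes and 171 nt for all. Leaders of 653 nt (Slc7a3), 561 nt (Slc1a5) and 515 nt (Slc38a1) stood at the percentiles 96.0, 93.8 and 92.1. An AUG upstream of the CDS was present in 5 of the 10 (Slc7a11, Slc7a1, Slc7a3, Slc1a5 and Slc38a1), against 51.3% of all transcripts. None of the 10 began with a pyrimidine tract like that of TOP mRNAs, which 2.34% of all transcripts did in this annotation. The CDS of Slc6a9 overlaps exons of Ccdc24 and Gm17114 on the opposite strand, and since the use of strand in counting is not stated, its counts are uncertain.

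The libraries held 17048192 to 28911595 RNA-seq counts and 669358 to 5287270 footprints on CDS, with ctrl DMSO replicate 3 the shallowest of the ribo-seq. Eif4e3 was measured at 11.6 to 22.1 CPM (a library's counts scaled to a common total after TMM) in the footprints of ctrl cells and at 2.28 to 6.61 in those of KO cells, and its mRNA at 12.0 to 18.2 and 2.89 to 5.04 CPM, without overlap between KO and ctrl libraries. Of 14 sympathoadrenal neuroblastoma markers 12 were in the RNA-seq tables, with a summed level of 4405 to 5881 CPM. Nefl and Nefm were not listed. Of the fibroblast, Schwann and glial, and leukocyte markers 2 of 6, 1 of 5 and 1 of 4 were listed, and their summed levels stayed at or below 4.08 CPM in every library. As the libraries were made from bulk cells, a lower number of expressing cells and less RNA per cell cannot be told apart.

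Per kilobase of CDS, the mRNAs of Slc3a2 and Slc7a5 were the most abundant of the 10 in ctrl DMSO, at 611 ± 98.1 and 525 ± 80.7 CPM per kb (SD, n = 3), a difference within the spread between replicates. Slc1a5 (193 ± 27.6), Slc38a1 (139 ± 18.2), Slc38a2 (129 ± 30.0), Slc7a3 (98.5 ± 16.1), Slc7a1 (70.4 ± 26.4), Slc1a4 (49.8 ± 3.67), Slc6a9 (31.4 ± 5.40) and Slc7a11 (6.30 ± 2.06) followed on the same scale. The libraries of Slc38a1 and Slc38a2 overlapped, as did those of each further neighbour down to Slc1a4. The steps from Slc7a5 to Slc1a5, from Slc1a5 to Slc38a1, from Slc1a4 to Slc6a9 and from Slc6a9 to Slc7a11 had no overlap between libraries. Footprints per kb of CDS kept Slc3a2 (927 ± 169, SD, n = 2) and Slc7a5 (844 ± 146) at the top in ctrl DMSO. The lowest level was that of Slc6a9 (31.8 ± 6.47) and not that of Slc7a11 (43.8 ± 12.4), and these also overlapped. The lowest single value behind these levels was 32 footprints for Slc6a9 in ctrl DMSO replicate 3, which gives 47.8 CPM without scaling, with exact Clopper-Pearson bounds (95%) of 32.7 and 67.5 CPM that cover counting error only.

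**Figure D2:**
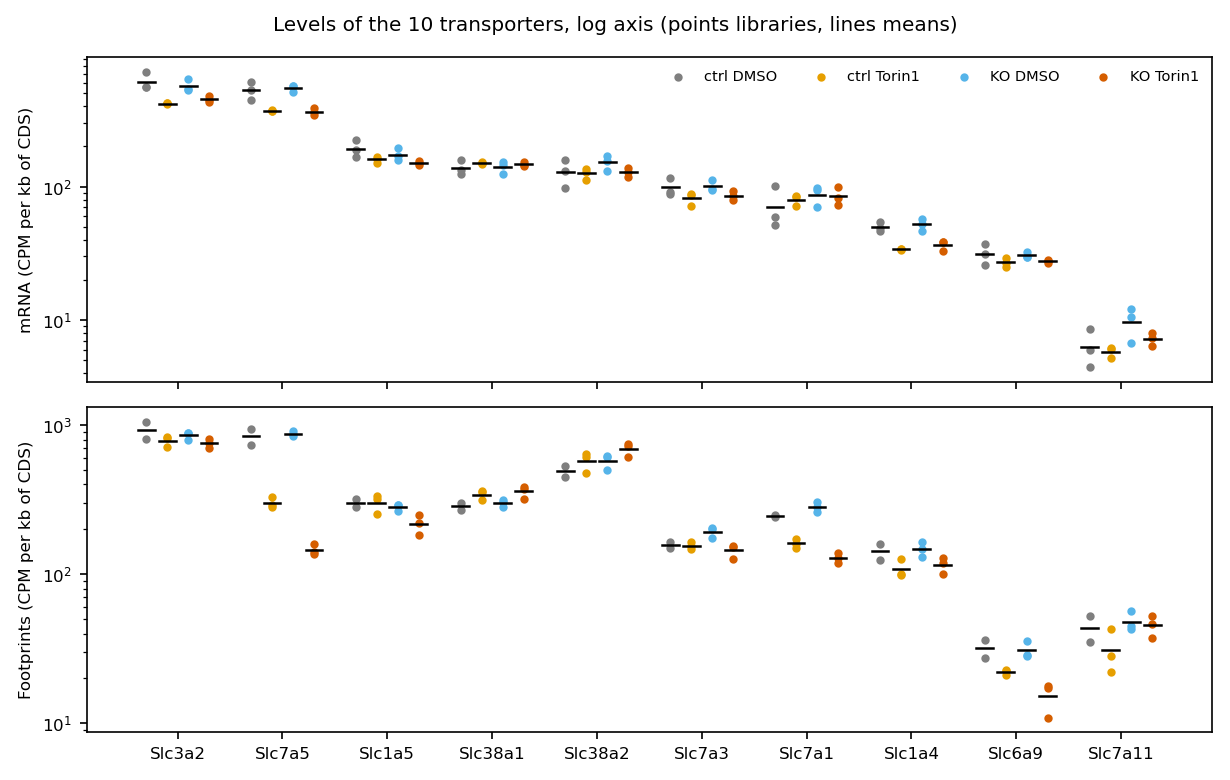
Levels of mRNA (top) and footprints (bottom) in CPM per kb of CDS on log axes for the 10 genes in order of their mRNA in ctrl DMSO, with a point per library and a line at the mean of each of the 4 conditions. Slc3a2 and Slc7a5 lead both panels in DMSO, and the footprints of Slc7a5 drop away from those of Slc3a2 with Torin1, furthest in KO cells.

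Slc7a5 was the gene with the widest range of footprints among the 10. Its footprints came to 1454 and 1137 CPM in ctrl DMSO and to 1344, 1295 and 1401 CPM in KO DMSO. With Torin1 they were 436, 447 and 505 CPM in ctrl cells and 217, 210.5 and 243 CPM in KO cells. The libraries thus fell into 3 levels that did not overlap, with both DMSO conditions on top, ctrl Torin1 in the middle and KO Torin1 lowest, and the DMSO conditions did not differ beyond their spread. The mRNA had no such middle step. It was at 680, 812 and 928 CPM in ctrl DMSO, at 869, 873 and 791 CPM in KO DMSO, at 571, 570.3 and 564 CPM in ctrl Torin1 and at 591, 525 and 555 CPM in KO Torin1. Every Torin1 library had less Slc7a5 mRNA than every DMSO library, and KO and ctrl overlapped under both treatments.

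The ratio of footprints to mRNA of Slc7a5, taken between libraries of the same replicate number, was 2.14 and 1.23 in ctrl DMSO, 1.55, 1.48 and 1.77 in KO DMSO, 0.764, 0.785 and 0.894 in ctrl Torin1 and 0.368, 0.401 and 0.438 in KO Torin1. The order of the conditions was that of the footprints, and only the ctrl DMSO and KO DMSO libraries overlapped.

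**Figure D3:**
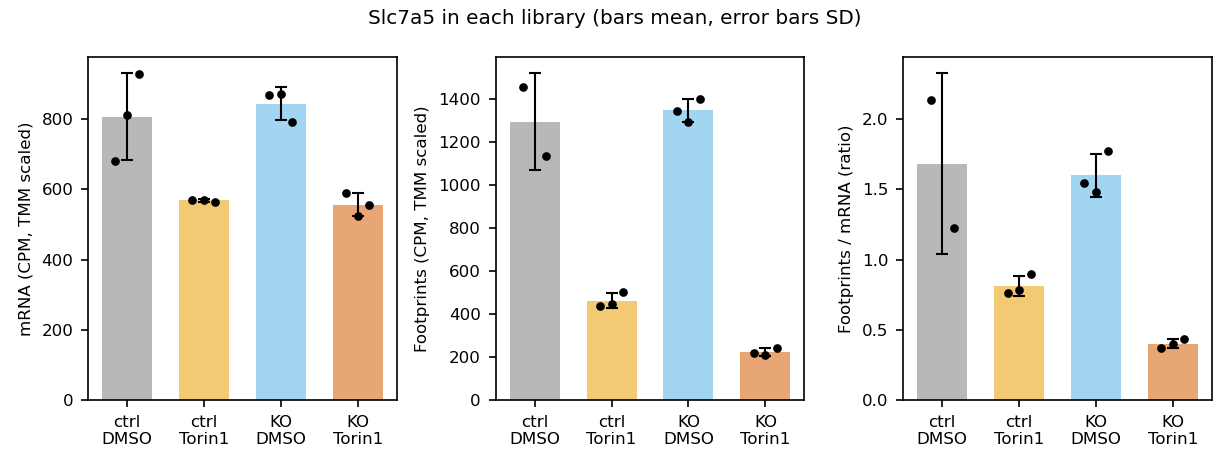
Slc7a5 mRNA (left, CPM), footprints (middle, CPM) and the ratio of footprints to mRNA (right) in each library of the 4 conditions, with bars at the mean and error bars of 1 SD. The mRNA lies lower with Torin1 than with DMSO in both lines, and footprints with Torin1 average 463 CPM in ctrl and 224 CPM in KO cells.

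The heavy chain Slc3a2 did not share this pattern. Its footprints were 1274 and 1651 CPM in ctrl DMSO, 1119, 1283 and 1306 CPM in ctrl Torin1, 1387, 1403 and 1257 CPM in KO DMSO and 1112, 1267 and 1198 CPM in KO Torin1, so that Torin1 and DMSO libraries overlapped in each line. Per kb of CDS, the ratio of Slc7a5 to Slc3a2 footprints came to 0.940 ± 0.329 (SD, n = 2) in ctrl DMSO, and KO DMSO had 1.03 ± 0.103 (SD, n = 3). With Torin1 it was 0.385 ± 0.0234 in ctrl and 0.193 ± 0.0200 in KO cells (SD, n = 3 each). The same ratio of the mRNAs stayed between 0.808 ± 0.0801 and 0.975 ± 0.0845 over the 4 conditions (SD, n = 3 each).

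The response to Torin1 in ctrl cells was taken from a comparison of ctrl Torin1 with ctrl DMSO, fitted over all transcripts with edgeR's quasi-likelihood test and Benjamini-Hochberg adjustment, which gave every adjusted p below unless another test is named. A gene was called where this adjusted p was under 0.05, a threshold passed by 2.73% of all mRNAs (0.675% lower), 15.6% of all footprint levels (9.93% lower) and 4.68% of all translational efficiencies (TE, the change of footprints relative to that of mRNA, 4.29% lower). Of the 10 genes, 2 mRNAs fell, Slc3a2 (log2 fold change -0.54 ± 0.127, SE, adjusted p = 0.0451) and Slc1a4, a sodium-dependent exchanger of alanine, serine and cysteine (-0.55 ± 0.115, adjusted p = 0.0252). Slc7a5 mRNA was at -0.50 ± 0.124 with an adjusted p of 0.0564. This became 0.0198 with the replicate number as a block, which called 12.1% of all mRNAs (3.19% lower). By DESeq2, which called 723 of 10958 mRNAs, it was 0.00852. The mRNA of Slc1a4 was at 77.5, 74.8 and 86.0 CPM in ctrl DMSO and at 54.0, 54.3 and 53.7 CPM in ctrl Torin1, and that of Slc3a2 at 878, 1143 and 873 CPM against 654, 667 and 662 CPM. In all, 4 of the 10 mRNAs (Slc7a5, Slc3a2, Slc1a4 and Slc1a5) had no overlap between these groups, against 31.0% of all. The median log2 fold change of the 10 mRNAs was -0.24, against 0.00 for all.

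Footprints of 3 of the 10 fell in ctrl cells. Slc7a5 was at -1.49 ± 0.145 on the log2 scale (SE, adjusted p = 4.96e-07), which is 2.81-fold lower. Slc7a1, a carrier of arginine and lysine, was at -0.61 ± 0.138 (adjusted p = 0.0053), and its footprints were 462 and 451 CPM in ctrl DMSO against 299, 280 and 320 CPM in ctrl Torin1. Slc6a9, a glycine carrier, was at -0.60 ± 0.191 (adjusted p = 0.0401, and 0.188 by DESeq2), on 32 to 288 footprints per library. The 10 footprint levels had a median of -0.29, against 0.02 for all, and 4 of the 10 had no overlap between the groups, against 42.9% of all. None rose, and the values of Slc38a1 (0.27 ± 0.143) and Slc38a2 (0.24 ± 0.154) were above 0 without passing the test. In TE, Slc7a5 alone passed, at -0.99 ± 0.193 (adjusted p = 0.00231), while Slc7a1 was at -0.80 ± 0.265 (adjusted p = 0.102, and 0.0222 with the block, which called 4.38% of all). Slc7a11, the cystine and glutamate exchanger, passed in footprints with the block only, at -0.77 (adjusted p = 0.00543), and Slc6a9 no longer did (adjusted p = 0.083). There the block called 16.7% of all footprint levels (10.0% lower). With no ribo-seq ctrl DMSO replicate 2, ribo-seq ctrl Torin1 replicate 2 added nothing to the block's contrast in footprints or TE. That library had the most Slc7a11 footprints with Torin1 in ctrl cells, 64.3 CPM against 33.3 and 42.6 CPM. Without the block, Slc7a11 was at -0.35.

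Part of these calls changed when a library was left out. The mRNA calls of Slc3a2 and Slc1a4 were both lost without ctrl DMSO replicate 1 (adjusted p = 0.0681 and 0.0584) and without ctrl Torin1 replicate 1, 2 or 3 (0.143 to 0.207). Without a ctrl Torin1 library the fold changes stayed close to those of the full fit, at -0.54 to -0.55 for Slc3a2 and -0.55 to -0.56 for Slc1a4. The call of Slc7a5 mRNA was gained without ctrl DMSO replicate 1 or 3 (0.0343 and 0.0411). Without ctrl DMSO replicate 3, Slc7a1 mRNA also rose, by 0.53 (adjusted p = 0.0267), and its TE passed at -1.14 (2.28e-04). The footprint call of Slc7a1 was lost without ctrl Torin1 replicate 2 (0.0563), and that of Slc6a9 without ctrl DMSO replicate 1 (0.639) or ctrl Torin1 replicate 1, 2 or 3 (0.0579, 0.162 and 0.133), whereas Slc7a5 passed in footprints and TE under every alternative run.

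In KO cells, Torin1 against DMSO called 9.97% of all mRNAs (3.74% lower), 40.6% of all footprint levels and 28.4% of all TEs. The mRNAs of 3 of the 10 genes fell, Slc7a5 (-0.60 ± 0.0692, SE, adjusted p = 2.67e-04), Slc1a4 (-0.51 ± 0.0939, adjusted p = 0.00583) and Slc3a2 (-0.33 ± 0.0831, adjusted p = 0.0303). Slc3a2 mRNA was at 842, 1007 and 833 CPM in KO DMSO and at 703, 753 and 675 CPM in KO Torin1. With the replicate block, Slc7a11 (-0.40), Slc7a3 (-0.23) and Slc38a2 (-0.24) passed too, with adjusted p-values of 0.0443, 0.0333 and 0.0488, where 16.3% of all mRNAs did. No overlap between the groups was seen for 6 of the 10 mRNAs, against 33.0% of all. The median over the 10 was -0.24 and that over all mRNAs 0.00.

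Footprints of 6 of the 10 fell in KO cells, where 22.1% of all transcripts did. Slc7a5 was 6.11-fold lower (-2.61 ± 0.111, SE, adjusted p = 9.22e-19). For Slc7a1 the footprints were 491, 526 and 573 CPM in KO DMSO and 221, 238 and 259.5 CPM in KO Torin1 (-1.16 ± 0.111, adjusted p = 2.48e-10), and for Slc6a9 they were 54.5, 53.4 and 67.7 CPM against 20.7, 32.5 and 33.7 CPM (-1.04 ± 0.175, adjusted p = 1.37e-05). Neither gene's groups overlapped. Smaller decreases were those of the cationic carrier Slc7a3 (-0.43 ± 0.113, adjusted p = 0.00245), of Slc1a5, an exchanger of glutamine and small neutral amino acids (-0.40 ± 0.113, adjusted p = 0.00478), and of Slc1a4 (-0.37 ± 0.120, adjusted p = 0.0143). Over the 10 genes the median was -0.39, against 0.02 for all, and 7 had no overlap between the groups, against 49.5% of all.

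Slc38a1 and Slc38a2, sodium-coupled carriers of glutamine and other neutral amino acids, lay on the other side of 0. Slc38a2 had 756, 920 and 934 CPM of footprints in KO DMSO and 921, 1133 and 1092 CPM in KO Torin1, so that the groups just overlapped. Their footprint changes of 0.25 each missed the threshold (adjusted p = 0.0638 and 0.0652) and passed it with the block (0.0268 and 0.0195). There the block called 44.0% of all footprint levels (20.4% higher). In TE 1 of the 10 rose, where 10.6% of all did, and 3 fell, where 17.8% did. Slc38a2 rose by 0.50 ± 0.147 (SE, adjusted p = 0.013). The TE of Slc7a5 (-2.01 ± 0.122, adjusted p = 2.31e-12), Slc7a1 (-1.12 ± 0.163, adjusted p = 9.16e-06) and Slc6a9 (-0.90 ± 0.193, adjusted p = 9.73e-04) fell.

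With library sizes alone and no TMM scaling, the median response to Torin1 on the log2 scale moved from 0.02 to 0.23 in ctrl and to 0.26 in KO for the footprints of all transcripts, and from -0.01 to 0.16 and 0.24 for TE. The changes given here are relative to the median of the scaled values. With either scaling a level is relative to the rest of its library, so a change in total footprints per cell is not seen. On the unscaled values Slc7a3, Slc1a4 and Slc1a5 footprints in KO no longer passed (adjusted p = 0.179, 0.436 and 0.269), nor did those of Slc6a9 in ctrl cells (0.157), while Slc38a1 and Slc38a2 footprints passed in both lines, at 0.48 and 0.45 in ctrl and 0.50 and 0.50 in KO. In KO cells the mRNA call of Slc3a2 was lost without KO DMSO replicate 1 (adjusted p = 0.0538) or KO Torin1 replicate 1, 2 or 3 (0.106, 0.0694 and 0.136), and those of Slc7a11 and Slc38a2 mRNA were gained without KO DMSO replicate 2 (0.00509 and 0.00565). Leaving out KO Torin1 replicate 1 ended the footprint calls of Slc1a4 (0.106) and Slc1a5 (0.0542) and gained those of Slc38a1 and Slc38a2 (0.0289 each). Without KO DMSO replicate 3 the footprint call of Slc1a4 was lost (0.0614), that of Slc38a2 footprints gained (0.0369) and that of its TE lost (RNA-seq library, 0.0557), and without the RNA-seq library KO DMSO replicate 2 the TE of Slc7a11 passed at 0.52 (0.0412).

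**Figure D4:**
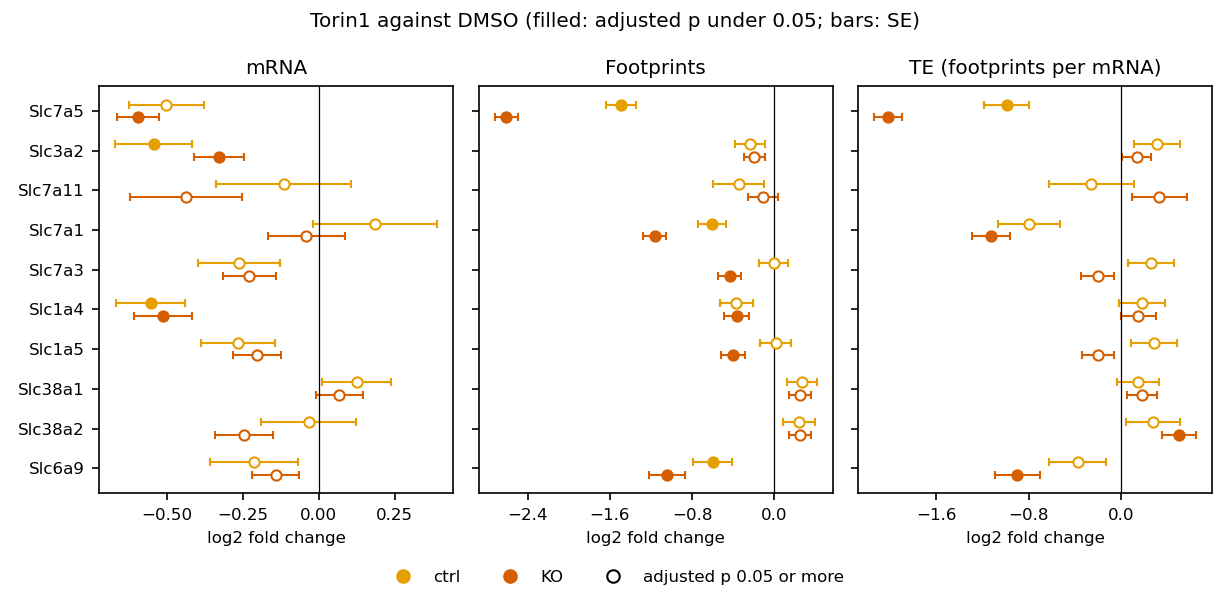
Log2 fold change of Torin1 against DMSO (x axis) in ctrl and KO cells for mRNA (left), footprints (middle) and TE (right) of the 10 genes, with bars of 1 SE and filled points where the adjusted p was under 0.05. Slc7a5 is the lowest point of the footprint and TE panels in both lines, at -1.49 in ctrl and -2.61 in KO for footprints, and the Slc38a1 and Slc38a2 footprints lie above 0.

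Without the drug, none of the 10 genes was called between the genotypes. In KO DMSO against ctrl DMSO, 0 of 10 passed in mRNA, footprints or TE by edgeR's quasi-likelihood test, where 0.0183%, 0.0279% and 0.0% of all transcripts did. At an unadjusted p under 0.05 the counts were 1, 0 and 0, against 5.91%, 7.9% and 4.07% of all, and DESeq2 called 0 in each. The 1 was Slc7a11, with mRNA at 8.99, 6.67 and 12.8 CPM in ctrl DMSO and 18.1, 10.1 and 15.8 CPM in KO DMSO (log2 fold change 0.64 ± 0.262, SE, adjusted p = 0.683). These overlapping values rest on 136 to 389 reads per library. With the replicate block Slc7a11 passed (0.64, adjusted p = 0.00628), and so did Slc7a1 mRNA (0.36, adjusted p = 0.0156), among 7.93% of all mRNAs. The libraries of KO and ctrl did not overlap for 0 of the 10 mRNAs, against 11.4% of all, and for 2 of the 10 footprint levels, against 26.4%. The footprints of Slc7a5 differed by 0.05 ± 0.151 on the log2 scale (SE).

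With Torin1, KO and ctrl were apart in the footprints of 2 of the 10 genes, where 6.03% of all transcripts were called (4.01% lower). Slc7a5 was 2.07-fold lower in KO Torin1 than in ctrl Torin1 (-1.05 ± 0.104 on the log2 scale, SE, adjusted p = 3.2e-09), and by p-value it stood at rank 3 of 10792 transcripts. Slc1a5 had 304, 413 and 368 CPM of footprints in KO Torin1 and 422, 530 and 556 CPM in ctrl Torin1, which did not overlap (-0.48 ± 0.111, adjusted p = 0.0056). Slc7a1 (-0.32 ± 0.105, adjusted p = 0.0569) and Slc6a9 (-0.55 ± 0.190, adjusted p = 0.0770) had no overlap between the groups either and missed the threshold. Over the 10 genes 4 did not overlap, against 24.6% of all transcripts.

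The mRNAs showed no called difference in this comparison, with 0 of 10 passing by edgeR (1.96% of all) and by DESeq2. An unadjusted p under 0.05 was reached by 2 of 10, Slc3a2 (0.11 ± 0.0497, SE) and Slc7a11 (0.32 ± 0.126), against 17.8% of all mRNAs. These 2 had no overlap between the groups, against 22.6% of all mRNAs. Slc7a5 mRNA was at -0.02 ± 0.0498. In TE, Slc7a5 was the 1 of 10 that passed, at -1.02 ± 0.107 (adjusted p = 1.11e-06), rank 3 of 10509, where 2.85% of all did (2.26% lower). The block added the footprints of Slc7a11 (0.54, adjusted p = 0.0319), Slc7a1 (-0.32, 0.0287) and Slc38a2 (0.27, 0.0323) where it called 7.19% of all, and the TE of Slc7a1 (-0.39, 0.0195) and Slc1a5 (-0.38, 0.00265), where it called 5.15%. Without ribo-seq KO Torin1 replicate 1 the footprint call of Slc1a5 was lost (0.0707) and that of Slc7a11 gained (0.0479), which was also gained without ctrl Torin1 replicate 2 (0.0124). The TE of Slc7a1 passed without the RNA-seq library KO Torin1 replicate 2 (0.0416), and that of Slc1a5 without the ribo-seq library ctrl Torin1 replicate 1 (0.0247).

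**Figure D5:**
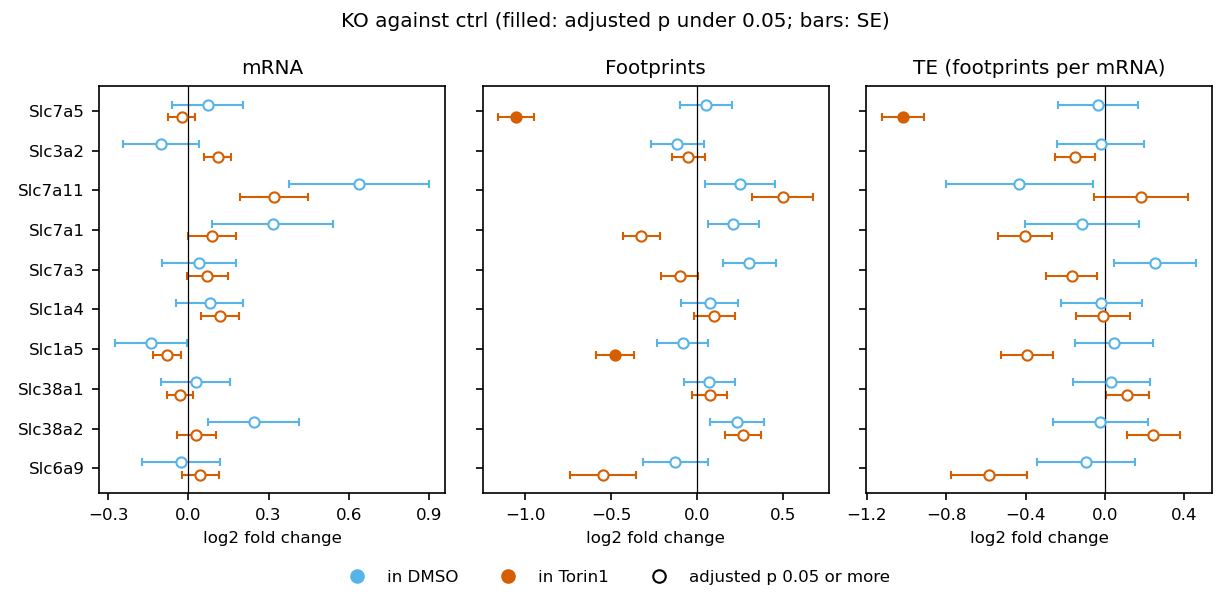
Log2 fold change of KO against ctrl (x axis) in DMSO and in Torin1 for mRNA (left), footprints (middle) and TE (right) of the 10 genes, with bars of 1 SE and filled points where the adjusted p was under 0.05. No point is filled in DMSO, and with Torin1 the filled points are Slc7a5 (-1.05) and Slc1a5 (-0.48) in footprints and Slc7a5 (-1.02) in TE.

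Whether Torin1 acted differently in the 2 lines was asked with the genotype by Torin1 term of a model over all 4 conditions, which shares its libraries with the pairwise comparisons above. For footprints, 0.111% of 10804 transcripts were called. Slc7a5 was the 1 of the 10 genes among them, at -1.10 ± 0.177 on the log2 scale (SE, adjusted p = 0.00544), and it had the smallest p-value of all transcripts. It stayed under 0.05 in all 16 alternatives, from -1.29 to -0.94 with adjusted p-values of 3.39e-06 to 0.0486. The next members by p-value were Slc7a1 (-0.54 ± 0.174, adjusted p = 0.320), Slc7a3 (-0.41 ± 0.181, adjusted p = 0.651) and Slc1a5 (-0.40 ± 0.190, adjusted p = 0.712). All were unadjusted under 0.05, as were 6.83% of all transcripts.

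For mRNA the term was called in 0 of 10 genes by edgeR and DESeq2 alike, with 0.0% of all called. At an unadjusted p under 0.05 there were 0 of 10, against 0.975% of all, and Slc7a5 was at -0.10 ± 0.140 (SE). For TE, 0 of 10 and 0.0% of all passed by edgeR. Slc7a5 was at -0.99 ± 0.217 with an adjusted p of 0.184 (0.0935 with the block). It was the 1 member at an unadjusted p under 0.05, against 5.75% of all, and DESeq2 called it (-1.01, adjusted p = 0.0261).

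Outside the 10, the list of other amino acid transporters held 42 genes, of which 17 were tested in at least 1 comparison. In ctrl cells 1 of 14 mRNAs fell with Torin1 and 1 rose, where 0.675% of all fell and 2.05% rose. In KO cells 1 of 15 fell and 1 rose, where 3.74% of all fell and 6.23% rose. Slc38a10, of the family of Slc38a1 and Slc38a2, fell in mRNA in both lines (-0.55 ± 0.107 and -0.59 ± 0.0735, SE) and further in footprints (-1.55 ± 0.166 in ctrl, adjusted p = 1.87e-06, and -1.84 ± 0.147 in KO, adjusted p = 3.81e-12) and TE (-1.01 ± 0.191 and -1.25 ± 0.154). Slc43a1, a carrier of branched-chain and other neutral amino acids, rose in mRNA (1.02 ± 0.236 and 0.97 ± 0.230), on a mean of 33.7 to 102 reads per library.

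Footprints fell for 2 of 15 of these other carriers in ctrl cells, where 9.93% of all did and DESeq2 called 1. In KO cells they fell for 6 of 14 and rose for 1, where 22.1% of all fell and 18.5% rose. In KO cells Slc36a1, a proton-coupled carrier found on lysosomes, fell to 49.2 CPM from 113 CPM (-1.23 ± 0.148, SE, adjusted p = 3.88e-08) and also in TE (-1.13 ± 0.185). Slc38a7, a lysosomal exporter of glutamine, rose in footprints (0.33 ± 0.111, adjusted p = 0.0174) and TE (0.39 ± 0.124). Some calls outside the rule for named genes are given after their values were seen. Slc36a2 had a mean of 7.0 footprints per library in ctrl DMSO and 0 in each ctrl Torin1 library, which allows up to 3 counts in a library, so no size is given. In KO cells the TE of Slc6a15 (-0.56 ± 0.161) and Slc7a6 (-0.74 ± 0.135) fell as well. In Torin1, Slc36a1 footprints were lower in KO than in ctrl (-0.64 ± 0.160, adjusted p = 0.00978), the 1 of 14 carriers called there. The genotype comparison in DMSO called 0 of 15 mRNAs, 0 of 15 footprint levels and 0 of 13 TEs by edgeR and by DESeq2. At an unadjusted p under 0.05 there were 0, 1 and 0, against 5.91%, 7.9% and 4.07% of all.

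The list of ATF4 and amino acid response regulators had all 16 genes tested. With Torin1 8 mRNAs fell and 0 rose in ctrl cells, and 9 fell and 0 rose in KO cells, where 0.675% of all mRNAs fell in ctrl and 3.74% in KO. The median log2 fold change was -0.67 in ctrl and -0.36 in KO against 0.00 for all mRNAs in both. Atf4 mRNA fell by 1.18 ± 0.120 on the log2 scale in ctrl and by 1.02 ± 0.0663 in KO (SE), and its footprints by 1.79 ± 0.141 and 1.52 ± 0.120. Chac1, a glutathione-degrading enzyme, and Sesn2, a leucine-binding regulator, had the lowest mRNA values in ctrl cells (-3.99 ± 0.137 and -3.91 ± 0.174), and their TE rose in both lines. Footprints of the list fell for 7 and rose for 0 in ctrl cells, where 9.93% of all fell and 5.69% rose. In KO cells they fell for 7 and rose for 4, where 22.1% of all fell and 18.5% rose. In TE 0 fell and 2 rose in ctrl cells, where 4.29% of all fell and 0.383% rose, and 2 fell and 9 rose in KO cells, where 17.8% fell and 10.6% rose.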

How the data were processed

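RNA-seq (12 libraries) and ribo-seq (11 libraries) of N2a cells in 4 conditions were used, grouped by their labels; ctrl DMSO replicate 2 of the footprints is not analysed here. Reads had been aligned by the authors (HISAT2 on mm10, bowtie2 on canonical Ensembl transcripts), who deposited raw counts per CDS, one table for each assay and pair of conditions, with riboWaltz P-sites as the footprint counts. The tables also hold the authors' log2 fold changes, log2 CPM, p-values and FDR, and further tables hold their TE values with log2 ratios and p-values, and none of these was used. A library had the same counts wherever it appeared (0 of 489396 differed). For DMSO, the RNA-seq table of both genotypes gives 2 columns of each genotype one replicate number, and these entered without it. The block fit took the numbered columns from other tables.

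A transcript was kept if its CPM exceeded 1 in every library of at least 1 condition (86 to 1531 per table were dropped). Counts were tested with edgeR 4.0.16 in R 4.3.3 (TMM, quasi-likelihood F-test, Benjamini-Hochberg adjustment over all transcripts tested, threshold 0.05). TE was the interaction of assay and condition in a model of both assays. Levels are CPM after TMM over all libraries of an assay and can differ slightly from the scaling of a pairwise fit. The code was tested on simulated data. The members and lists were chosen with earlier results of these data known. All 10 members were named in every comparison, with Eif4e3 as a check of the labels, and for other transporters up to 2 called genes with the largest increase and 2 with the largest decrease with Torin1, if the higher group averaged 10 counts or more. For Slc7a5 and Slc7a11 the 5 transcripts with the highest Pearson's r were named. Transcripts were matched to GENCODE M21 (12703 of 12759), the genome sequence and promoters are those of RefSeq (GRCm38), and figures were drawn with matplotlib 3.10.9.

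In the labels, replicates of a condition are different passages. Whether a number marks one passage in every condition is not stated, and the block takes it to do so. After removal of condition means, r between libraries of the same number spanned 0.0352 to 0.733 in RNA-seq, where pairs of unlike number spanned -0.586 to 0.429, and -0.0440 to 0.126 in ribo-seq, where they spanned -0.126 to 0.112. For Torin1 against DMSO in RNA-seq, every pair of like number exceeded every pair of unlike number in both lines. The lowest like and highest unlike values were 0.0589 and 0.0516 in ctrl, and 0.169 and -0.0498 in KO. The same order was seen in ribo-seq of ctrl cells (0.108 and 0.00174), on 2 pairs of like number. There the 2 ctrl DMSO libraries are exact opposites once their mean is removed. Unlike pairs therefore include the values of like pairs with the sign reversed, and the order cannot show whether a number marks one passage. In the other comparisons like and unlike pairs overlapped. The main fits did not use the number. Replicates are passages of the ctrl or the KO line, so p-values measure the spread between passages. As far as is stated, each genotype is a single selected population. An effect of Eif4e3 loss and another difference between these populations cannot be told apart, which also holds for the genotype by Torin1 term. Alternatives were DESeq2 1.42.0, RLE scaling, library sizes alone, no filter, the block, all 4 conditions in one fit and leaving out each library.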

Additional observations from a re-analysis of the deposited data

Results flagged for a closer look

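The genotype by Torin1 term for the footprints of Slc7a5 passed its threshold. Since the list counts as selected on values that include this term, it is given as a description. The response in KO minus that in ctrl was -1.10 on the log2 scale (SE 0.177, edgeR adjusted p = 0.00544). Footprints were lower with Torin1 in 3 of 3 libraries of each line than in every DMSO library of that line, and lower in 3 of 3 KO Torin1 libraries than in every ctrl Torin1 library. The ctrl DMSO group held 2 libraries, of which replicate 3 had 704 Slc7a5 footprints and replicate 1 had 6064, and the term passed the threshold without either of them. The same term for TE, -0.99 (SE 0.217), did not pass by edgeR (adjusted p = 0.184).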

How the results depend on the processing

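The count of members called moved by over 1.5 times in few settings. Without scaling beyond library size it was 1 in place of 2 for mRNA with Torin1 in ctrl. With the replicate number as a block (replicate block), it was 6 in place of 3 for mRNA with Torin1 in KO, 2 in place of 0 for mRNA between genotypes in DMSO, 5 in place of 2 for footprints between genotypes in Torin1, 2 in place of 1 for TE with Torin1 in ctrl (also 2 with all 4 conditions in one fit) and 3 in place of 1 for TE between genotypes in Torin1. The calls of members that the block changed are given in the report, and it changed no other call of a member. DESeq2 gave 2 for TE between genotypes in Torin1, adding Slc6a9 (adjusted p = 0.0395), and 1 for the TE interaction. Leaving out each library gave 0 to 4 and 2 to 5 for mRNA with Torin1 in ctrl and KO, 1 to 3 and 6 to 6 for footprints, 1 to 2 and 3 to 5 for TE, 2 to 3 and 1 to 2 for footprints and TE between genotypes in Torin1, 1 to 1 for the footprint interaction, and 0 in the other 6. With all 4 conditions in one fit, the KO calls of Slc3a2 mRNA (0.0987) and Slc38a2 TE (0.0561) were lost, and with no filter on low counts Slc38a1 and Slc38a2 footprints in KO passed (0.0491 and 0.0499). Slc1a4 mRNA in ctrl was lost without scaling (0.0592), where the TE of Slc3a2 and Slc38a1 in KO passed (0.0163 and 0.0131). Of all single-gene values under the alternatives, 2177 kept their side of the threshold, 42 newly passed and 31 no longer passed. The sign differed in 128 of the 2177, all of genes not called in either setting, and 0 called values reversed. With the motif TGATGNA, 50.2% of all windows and 9 of 10 members matched. Where leaving out a library left 1 ribo-seq library of ctrl DMSO, that library is assumed to vary like those of the other condition. Depth limits Slc7a11 mRNA and Slc6a9 footprints most.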

Other observations

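Genes of amino acid sensing by mTORC1 were measured as a list of 20, of which 19 were tested in RNA-seq and 18 in ribo-seq. It held Rag GTPases, Ragulator, GATOR1, Rheb, cytosolic sensors, and Mtor, Rptor and Mlst8, which are subunits of mTORC1 itself. Sesn2 was counted with the ATF4 regulators and not here. Its mRNA fell with Torin1, at -3.91 ± 0.174 in ctrl and -3.62 ± 0.0987 in KO (log2, SE). Of the 19 mRNAs in the list, edgeR called 0 with Torin1 in either line, and DESeq2 called 2 in ctrl and 0 in KO. An unadjusted p under 0.05 was reached by 3 in ctrl and 2 in KO, against 23.0% and 26.9% of all. Footprints of 3 rose and 1 fell in ctrl cells, where 5.69% of all rose and 9.93% fell and DESeq2 called 1. In KO cells 6 rose and 1 fell, where 18.5% of all rose and 22.1% fell and DESeq2 called 7. The 3 that rose in ctrl were Lamtor3, Rragb and Rheb, and like Lamtor4 they are named here outside the rule for named genes. The Ragulator subunit Lamtor3 rose by 0.63 ± 0.175 on the log2 scale in ctrl and 0.89 ± 0.139 in KO (SE). The Rag GTPase Rragb rose by 0.98 ± 0.287 and 0.78 ± 0.183, and the GTPase Rheb, the direct activator of mTORC1, by 0.45 ± 0.150 and 0.55 ± 0.114. Lamtor4 was the 1 that fell, at -0.81 ± 0.181 and -0.76 ± 0.156. In TE, 0 of 18 were called in ctrl cells, with 0 by DESeq2 and 3 at an unadjusted p under 0.05, against 16.4% of all. In KO cells the TE of 6 rose and of 1 fell, where 10.6% of all rose and 17.8% fell.

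Across the 12 RNA-seq libraries, the transcripts with levels most like those of Slc7a5 were Rps6ka4, Tnks1bp1, Men1, Gcn1 and Usp10, with Pearson's r of log2(CPM + 1) from 0.952 to 0.977 among 8616 transcripts with a mean of at least 10 CPM. Across the 11 ribo-seq libraries they were Ctsd, Plxnb2, Ptprn, Ptprf and Fuca1, with r from 0.994 to 0.997 among 8455 transcripts. Slc7a1 stood at rank 67 of these (r = 0.977) and Slc3a2 at rank 2222 (r = 0.602). For Slc7a11 they were Celf1, Etv5, Trim66, Hlcs and Xpot in RNA-seq (r from 0.928 to 0.964) and Ubxn2b, Celf1, Ddhd2, Rbl2 and Anxa6 in ribo-seq (r from 0.835 to 0.932). The points are libraries that share the 4 conditions, so these values describe the pattern over conditions and were not tested.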
